A study of Mus musculus with 6 samples.

Results

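The genes described here encode the matrix metalloproteinases (MMPs), the ADAM and ADAMTS proteases and the tissue inhibitors of metalloproteinases (TIMPs). They are the protein-coding genes of the count table whose symbols begin with Mmp, Adam, Adamts or Timp followed directly by a digit. This rule used names only, no measured value, and found 61 of 22295 genes, made up of 20 MMP, 19 ADAM, 18 ADAMTS and 4 TIMP genes. The series holds RNA libraries of sorted GFP-positive keratinocytes from back skin epidermis, 1 for each of 3 K19 *Itga3* WT and 3 K19 *Itga3* KO mice, and was made to ask what integrin α3β1 does in hair bulge (HB) cells at the start of tumor formation. All mice were on an FVB background and carried K19-CreER and the mTmG reporter, in which Cre switches a cell and its progeny to GFP. The KO mice also carried floxed *Itga3* on both alleles, so the deletion was limited to cells in which the K19 promoter had driven Cre. Mice of both genotypes received tamoxifen (10 mg/ml over 4 days at 6 weeks of age per the labels, whereas the paper's methods give another dose and age). A single application of 30 µg of the mutagen DMBA followed at 7 weeks of age. TPA, a phorbol ester that promotes skin tumors, was then given at 12.34 µg for each application over the following weeks. Per the paper this was a short-term treatment with 4 doses of TPA, at a stage before tumors had formed. There was no untreated group, so each value below describes keratinocytes isolated and sorted from treated skin.

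MMPs are zinc-dependent proteases that cut collagens, laminins and other matrix proteins, and most are secreted or membrane-bound as inactive proforms. ADAMs are anchored in the membrane and release growth factors, cytokines and adhesion molecules from the cell surface, while ADAMTS proteases are secreted and cut proteoglycans or trim procollagens. TIMPs bind the active site of these enzymes. In skin, keratinocytes at a wound edge switch on several MMPs, and in cultured keratinocytes integrin α3β1 has been linked to the expression of MMP9.

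Library depth lay between 20578309 and 23670507 counts, and the 60 genes with any count took 0.197% to 0.223% of each library. Levels are given as CPM, counts scaled to a common library size with TMM factors, and 3 counts, taken as the floor, equalled 0.128 to 0.145 CPM. In the KO libraries *Itga3* was at 124 to 134 CPM, against 252 to 371 in WT (log2 fold change −1.20, SE 0.13, adjusted p = 0.00283), so all 3 KO libraries lay below all WT libraries and each still held *Itga3* reads, which were counted over the whole gene and not over its floxed part alone. Keratinocyte markers (*Krt5*, *Krt14*, *Itgb4* and *Trp63*) summed to 21378 to 32577 CPM and those of neutrophils to at most 0.22 CPM. The bulge markers *Krt15*, *Lgr5* and *Cd34* were abundant in all libraries, while *Krt19* itself was at 2.20 to 4.77 CPM. The 8 fibroblast markers summed to 176 to 258 CPM in WT and 70.3 to 128 in KO libraries, mostly through *Col1a1*, *Col1a2* and *Thy1*. The other 5 were low: *Col3a1* was at 0 to 1.40 CPM, *Lum* at 0 to 0.141, *Pdgfra* at 0.339 to 1.33 and *Pdgfrb* at 0.176 to 0.824, and *Dcn* was at 0.573 to 1.69 CPM in WT and 1.55 to 5.44 in KO.

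A few genes carried nearly all of the RNA of these families. Compared per length (CPM per kb of exon), 10 genes held 95% of the summed level: *Timp2* (89.5), *Adamts1* (78.9), *Mmp2* (51.6), *Adam10* (34.2), *Timp3* (34.2), *Mmp14* (33.6), *Adam9* (19.3), *Adam15* (18.7), *Adam17* (13.5) and *Mmp15* (11.2). The next gene in the order, *Mmp11*, had a mean of 2.94 CPM per kb, and the median of all tested genes was 1.54. The same 10 genes led when CPM was not divided by length. Neighbours in this order were often not separated: on the per-kb scale the libraries of *Timp2* (67.8 to 111) and *Adamts1* (40.1 to 114) overlapped, as did those of *Adam10*, *Timp3* and *Mmp14* and those of *Adam9* and *Adam15*. *Mmp15* (7.34 to 14.7) lay above *Mmp11* (2.20 to 3.91) in all libraries. At the other end, 12 genes, *Mmp1a* with no count among them, had at most 3 counts in each library, and 34 had more than 3 counts in all of them. The plot of levels by family shows how each family fell into a few abundant genes and a long tail.

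**Figure D1:**
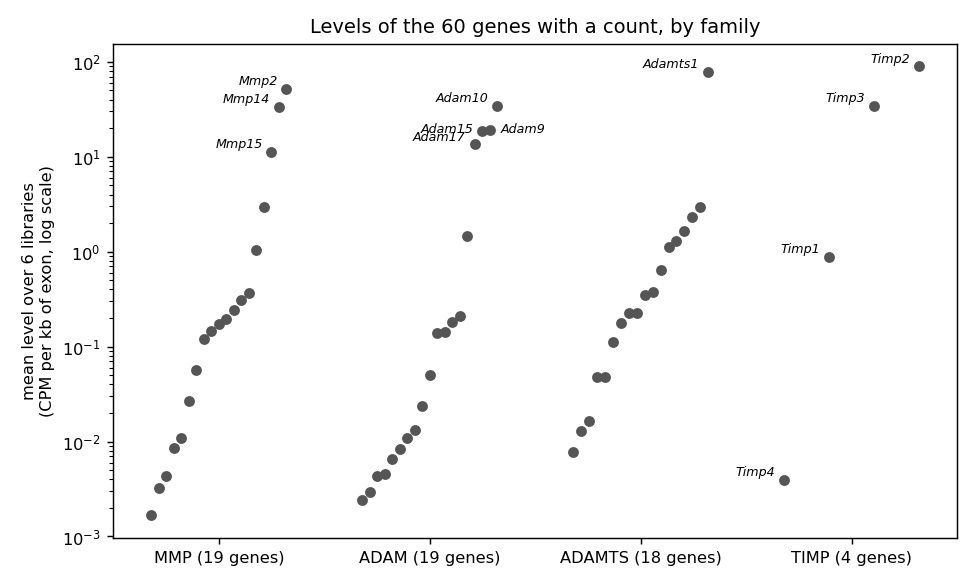
Each point is 1 gene, placed by its mean level over 6 libraries (vertical axis, CPM per kb of exon, log scale) within its family and in rising order from left to right. The 10 highest genes and the 4 TIMP genes are named, and these 10 lie above 10 CPM per kb while all other genes lie below 3.

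Between the genotypes 1 of the 60 tested genes, *Mmp2*, passed an adjusted p of 0.05 and it was lower in KO. Over all 21681 genes tested, edgeR called 146 (0.673%), with 0.461% higher and 0.212% lower in KO. No gene of the families was called higher, although 15 of 60 (25%) had an unadjusted p below 0.05, 9 of them higher and 6 lower in KO, against 11.5% of all genes. DESeq2 also called *Mmp2* alone among them (3.99% of 13690 genes with an adjusted p were called), and limma-voom called none (0.111% of all genes). DESeq2 gave no adjusted p for many genes of the families with low counts, *Adamts20* among them. The median log2 fold change of the 60 genes was 0.06, beside 0.00 for all genes. In 13 of 60 genes (21.7%, against 16.3% of all genes) the 3 libraries of one genotype lay entirely above those of the other, with 9 higher in KO (background 8.03%) and 4 lower (background 8.23%). Among genes with a mean of 10 counts or more the share was 10 of 33 (30.3%) against 21.6%. These shares are descriptions, with no test of the families against other genes.

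**Figure D2:**
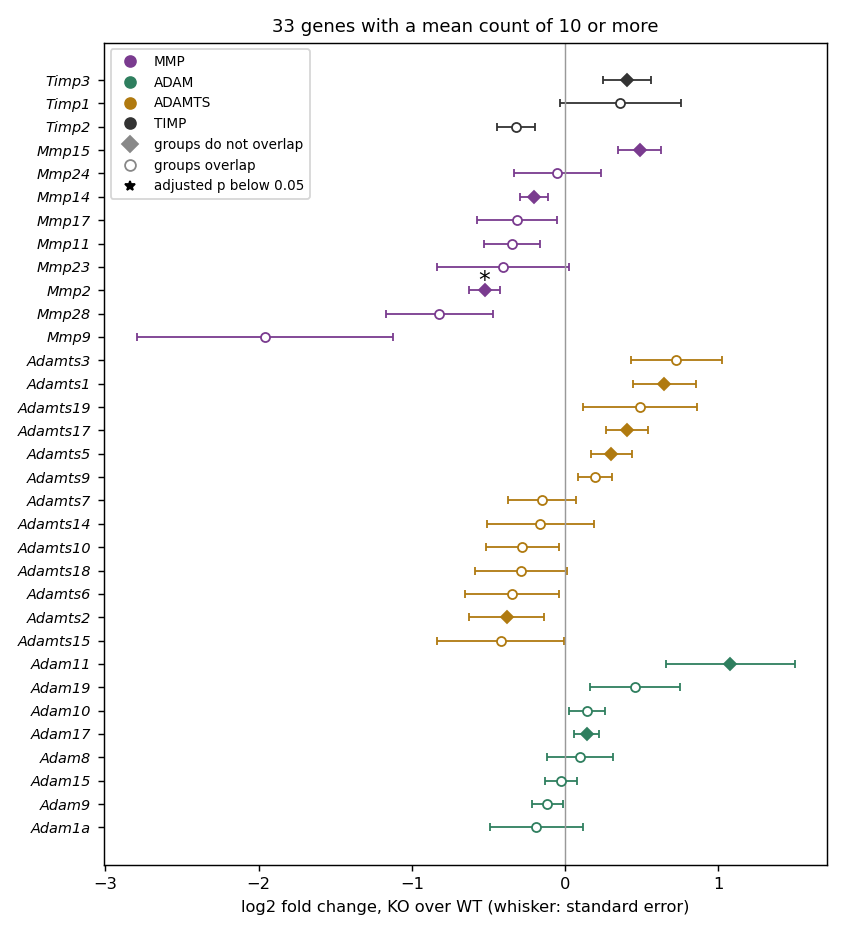
Log2 fold change of KO over WT (horizontal axis) with its standard error for the 33 genes with a mean count of 10 or more, ordered within each family. Filled diamonds are genes whose 3 KO and 3 WT libraries do not overlap, open circles those that overlap, and the star marks *Mmp2* (−0.53), the 1 gene with an adjusted p below 0.05 in edgeR.

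Of the gelatinases, which cut basement membrane collagen and denatured collagen, *Mmp2* was abundant and *Mmp9* was rare. *Mmp2* (ENSMUSG00000031740, chr8:92827328-92853417) measured 219.7 CPM in WT a, 195 in WT b and 201 in WT c, and 132 CPM in KO a, 159 in KO b and 138 in KO c, the order kept for the genes that follow. The genotypes did not overlap, and the KO mean of 143 ± 14 CPM (SD, n = 3) was 69.5% of the WT mean of 205 ± 12.8 CPM (SD, n = 3). This gave a log2 fold change of −0.53 (SE 0.10, adjusted p = 0.0431 in edgeR). The direction held in 13 of 13 alternative fits, which reuse the same libraries. The adjusted p was below 0.05 in 6 of the 13. It was 0.105 with limma-voom and rose to 0.366 without WT c, 0.306 without KO a and 0.196 without KO c. With filters on the genes tested it was 0.113 (filterByExpr), 0.121 (at least 10 counts in every library) and 0.0925 (protein-coding genes only). The summed fibroblast markers given above were lower in KO as well, with 3 of 8 (*Col1a2*, *Pdgfra* and *Thy1*) lower in all KO libraries and 1 (*Lum*) higher. Neither edgeR nor limma-voom called any of the 8 (adjusted p = 0.0555 for *Col1a2* in edgeR), whereas DESeq2 called *Col1a2* (adjusted p = 0.00073) and *Thy1* (adjusted p = 0.0116) lower and *Dcn* (adjusted p = 0.0161) higher in KO. In addition, the bulge marker *Cd34* was at 806 to 881 CPM in WT and 399 to 625 in KO (adjusted p = 0.0462). Of the 6 listed bulge markers it was the 1 called and the 1 lower in all KO libraries. The others overlapped, with log2 fold changes from −0.47 (*Lgr5*) to 0.16 (*Sox9*). The 6 summed to 11890 to 17911 CPM in WT and 11138 to 14500 in KO. The part of the fibroblast markers or of *Cd34* in the *Mmp2* difference was not tested. As the samples were bulk sorts, fewer cells of a type and less RNA per cell cannot be told apart.

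*Mmp9* (chr2:164940780-164955850), the gelatinase typical of wound edges and inflammatory cells, had 72, 14 and 4 counts in WT and 12, 8 and 3 in KO libraries. WT a stood apart and the other WT libraries overlapped the KO range. Its log2 fold change was −1.96 (SE 0.84, adjusted p = 0.393), and −0.21 when WT a was left out. The summed neutrophil markers were at 0.0918 CPM in WT a and at up to 0.220 CPM in the other libraries, with at most 4 counts per marker and library. Markers of macrophages and dendritic cells summed to 7.48 CPM in WT a and 5.19 to 8.82 CPM in the other libraries. The part of such cells in the *Mmp9* counts was not tested.

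The membrane MMPs act at the cell surface. *Mmp14* (chr14:54431604-54441258), which encodes MT1-MMP, the collagenase that activates pro-MMP2 together with TIMP2, measured 209.8, 214 and 221 CPM in WT and 171, 195 and 193 CPM in KO. All KO libraries lay below the WT libraries, by a log2 fold change of −0.20 (SE 0.09, adjusted p = 0.411). *Mmp15* (chr8:95352268-95374293), the closely related MT2-MMP, measured 59.6, 39.6 and 52.2 CPM in WT and 66.7, 66.3 and 79.1 CPM in KO. The KO libraries were all higher, with a log2 fold change of 0.49 (SE 0.14, adjusted p = 0.162). Without WT a the adjusted p of *Mmp15* was 0.0334, and over all alternatives it ranged from 0.0334 to 0.535. *Mmp2* and *Mmp15* lie on chromosome 8 and differed in opposite directions. Of the other membrane MMPs, *Mmp17* was at 4.42 to 10.5 CPM, *Mmp24* at 1.31 to 2.22 and *Mmp16* at no more than 1 count, while *Mmp23* and *Mmp25* had 2 to 14 counts. None of these 5 genes separated the genotypes.

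The collagenases, stromelysins and macrophage elastase that sit together on chromosome 9 lay at or near the floor. *Mmp13*, *Mmp12*, *Mmp1b*, *Mmp3*, *Mmp1a*, *Mmp10* and *Mmp8* lie between 7272514 and 7568486 on chromosome 9, and no library had more than 22 counts for any of them or more than 29 for their sum. *Mmp13*, collagenase 3, had 22, 8 and 3 counts in WT and 6, 4 and 8 in KO, and *Mmp3*, stromelysin 1, had 2, 4 and 14 against 14, 4 and 4. Neither separated the genotypes, and the adjusted p was 0.681 for *Mmp13* and 0.961 for *Mmp3*. For *Mmp13* the log2 fold change was −0.85 and turned to 0.15 without WT a. *Mmp1b*, an interstitial collagenase, had at most 1 count, and its close copy *Mmp1a* had none. Because only uniquely mapped reads were counted, reads that match both copies would be lost. Among the secreted MMPs elsewhere in the genome, *Mmp11*, stromelysin 3, was at 6.12 to 10.9 CPM (log2 fold change −0.34, SE 0.18, adjusted p = 0.525). *Mmp28*, epilysin, an MMP of keratinocytes, had 20, 41 and 40 counts in WT and 17, 18 and 21 in KO, and WT a lay within the KO range (log2 fold change −0.82, SE 0.35, adjusted p = 0.393). *Mmp19* had 7 to 14 counts and *Mmp21* at most 2. *Mmp12* overlaps *Mmp1b* on the opposite strand, and the counting kept strands apart.

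The promoters of these genes share a short sequence element. The AP-1 element, TGAGTCA or its reverse complement TGACTCA, is bound by FOS and JUN proteins and is also known as the TPA-responsive element. RefSeq promoters (GRCm38.p6, 250 bases before to 50 after each start) were matched for 39 of the 61 genes, with 43 starts in all. The element was present in 6 of the 7 genes of the cluster, all but *Mmp8*, at 35 to 93 bases before the start. The 7 genes have 8 starts, and a gene was counted if any of its starts held the element. Over all 32851 promoters, counted per start, it was present in 5.20%. Outside the cluster 2 members held it, *Adam19* and *Adam1b*, and none of the 8 matched genes among the 10 highest did. The 100 bases before the start of the 6 cluster genes are shown 5′ to 3′ on the strand of the gene, with the element in capitals, because the same element stands near the start in each. For *Mmp12* the stretch belongs to the RefSeq start that holds it, which lies inside the gene. The other *Mmp12* start, near the annotated start of the gene, lacks the element.
Mmp13 (chr9:7272414-7272513, + strand): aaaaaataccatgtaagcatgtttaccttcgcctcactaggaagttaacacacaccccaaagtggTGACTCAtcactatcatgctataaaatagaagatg
Mmp12 (chr9:7347274-7347373, + strand): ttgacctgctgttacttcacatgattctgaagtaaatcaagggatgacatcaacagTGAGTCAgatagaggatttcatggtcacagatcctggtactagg
Mmp1b (chr9:7388027-7388126, − strand): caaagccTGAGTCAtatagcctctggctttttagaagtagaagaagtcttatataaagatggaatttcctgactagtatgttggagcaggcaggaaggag
Mmp3 (chr9:7445722-7445821, + strand): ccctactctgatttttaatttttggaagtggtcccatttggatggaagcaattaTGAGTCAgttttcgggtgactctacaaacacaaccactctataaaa
Mmp1a (chr9:7464041-7464140, + strand): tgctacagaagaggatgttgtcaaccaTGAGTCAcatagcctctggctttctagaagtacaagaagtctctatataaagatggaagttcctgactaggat
Mmp10 (chr9:7502242-7502341, + strand): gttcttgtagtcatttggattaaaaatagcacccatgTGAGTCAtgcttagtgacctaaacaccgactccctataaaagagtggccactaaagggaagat

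Of the 7 listed genes for AP-1 proteins, *Fos* and *Jun* had the highest levels per kb. *Fos* measured 4166, 2115 and 2381 CPM in WT and 3188, 3948 and 3467 CPM in KO, and *Jun* 2262, 1255 and 1492 CPM in WT and 1600, 2119 and 1728 CPM in KO. The genotypes overlapped for both. *Fosb* (918 to 2584 CPM), *Jund* (331 to 585 CPM), *Fosl2* (281 to 419 CPM) and *Fosl1* (22.2 to 99.8 CPM) overlapped as well. *Junb* measured 672, 467 and 454 CPM in WT and 724, 713 and 677 CPM in KO, the 1 gene of the list whose genotypes did not overlap (log2 fold change 0.41, SE 0.14, adjusted p = 0.259). All 7 had a log2 fold change above 0 (median 0.29, beside 0.00 for all genes). None of the 7 was called in edgeR, limma-voom or DESeq2. In edgeR 2 of 7 (28.6%, against 11.5% of all genes) had an unadjusted p below 0.05. A match of the element is a description of the sequence, and binding was not measured.

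Promoters of the abundant genes held more CpG dinucleotides than those of the cluster, but so did those of many rare genes. The 300-base windows of the cluster genes held 0 to 4 CpG dinucleotides, those of the 8 matched genes among the 10 highest held 10 to 32, and the median of all promoters was 7. Of the 24 other matched genes, all with lower levels than these 8, 15 had a window with 10 or more and 5 (*Mmp24*, *Adamts14*, *Adamts2*, *Adamts3* and *Adamts20*) one with 41 to 44, above all of the abundant genes. The stretch of 100 bases before the start is shown for 4 of the abundant genes, 1 inhibitor and 1 protease of each family, with each CpG in capitals, as a contrast to the cluster.
Timp2 (chr11:118355412-118355511, − strand): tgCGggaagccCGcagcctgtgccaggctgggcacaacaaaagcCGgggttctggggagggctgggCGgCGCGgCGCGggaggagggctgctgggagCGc
Adamts1 (chr16:85803114-85803213, − strand): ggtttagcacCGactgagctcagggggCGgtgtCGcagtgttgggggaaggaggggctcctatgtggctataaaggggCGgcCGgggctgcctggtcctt
Adam10 (chr9:70678882-70678981, + strand): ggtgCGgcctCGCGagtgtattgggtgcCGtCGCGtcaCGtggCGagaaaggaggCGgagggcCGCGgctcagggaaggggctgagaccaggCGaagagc
Mmp14 (chr14:54431498-54431597, + strand): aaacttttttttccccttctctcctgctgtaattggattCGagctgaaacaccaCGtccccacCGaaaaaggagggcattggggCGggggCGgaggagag

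A high CpG count thus occurred in genes of high and of low level. Outside the cluster, the 4 matched genes with at most 3 counts in each library held 0 to 2 CpG dinucleotides. Just above this cutoff the picture was mixed: *Adamts13* (at most 4 counts) held 2 and *Adam22* (at most 5 counts) held 19. *Adam1a*, with 23 to 46 counts, held 4. The relation of CpG count to level was not tested. *Adam23*, a neural ADAM without protease activity, had 31 CpG dinucleotides in its window and at most 4 counts per library. The plot of CpG count against level shows the cluster genes at its lower left.

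**Figure D3:**
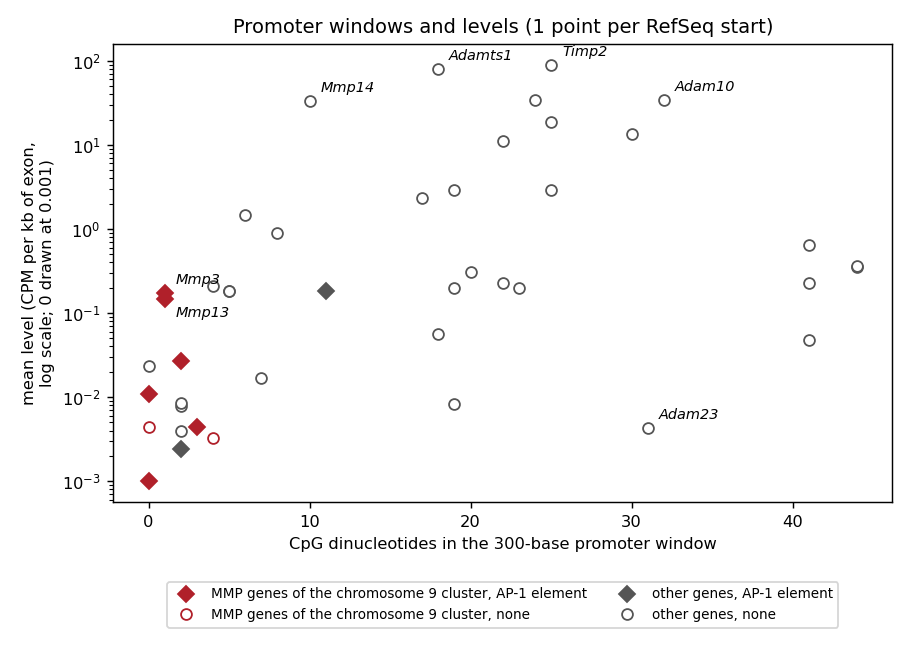
Each point is 1 RefSeq start of a gene of the families, with the CpG count of its 300-base promoter window (horizontal axis) and the mean level of the gene over 6 libraries (vertical axis, CPM per kb of exon, log scale, genes without a count drawn at 0.001). Red points are the 7 chromosome 9 genes, diamonds mark windows with the AP-1 element, and red points stay at 0 to 4 CpG, while 8 of the 10 highest genes lie at 10 to 32 and 5 genes of low level at 41 to 44.

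The inhibitors were led by *Timp2* and *Timp3*. *Timp2* (chr11:118301069-118355740), the inhibitor that also takes part in pro-MMP2 activation, measured 433, 367 and 361 CPM in WT and 264, 362 and 303 CPM in KO. KO b lay within the WT range, and the log2 fold change was −0.32 (SE 0.12, adjusted p = 0.335). *Timp3* (chr10:86300372-86349506), which binds to matrix and inhibits ADAM17 and several ADAMTS proteases, measured 249, 295 and 176 CPM in WT and 312, 299 and 342 CPM in KO. The KO libraries were all higher, WT b and KO b by little, and the log2 fold change was 0.40 (SE 0.16, adjusted p = 0.327). *Timp1* had 13, 13 and 20 counts in WT and 31, 14 and 14 in KO, and *Timp4* had at most 1. No TIMP gene was called in edgeR, limma-voom or DESeq2, which gave no adjusted p for *Timp4*. In edgeR 2 of 4 (1 higher and 1 lower) had an unadjusted p below 0.05, against 11.5% of all genes.

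The set of *Mmp14*, *Timp2* and *Mmp2*, whose products form the complex that activates pro-MMP2, was read side by side. The fitted log2 fold changes were −0.20, −0.32 and −0.53, *Mmp2* alone was called, and the genotypes overlapped for *Timp2*. Each was below 0 in all 13 alternative fits, but these reuse the same libraries and are no independent evidence. The sign of *Adam10* (adjusted p = 0.681) was also kept in all 13. *Reck*, a membrane-anchored inhibitor of MMP2 and MT1-MMP chosen here after its values were seen, was at 4.27 to 4.94 CPM in WT and 2.34 to 2.85 in KO (log2 fold change −0.80, SE 0.20, adjusted p = 0.109 in edgeR).

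**Figure D4:**
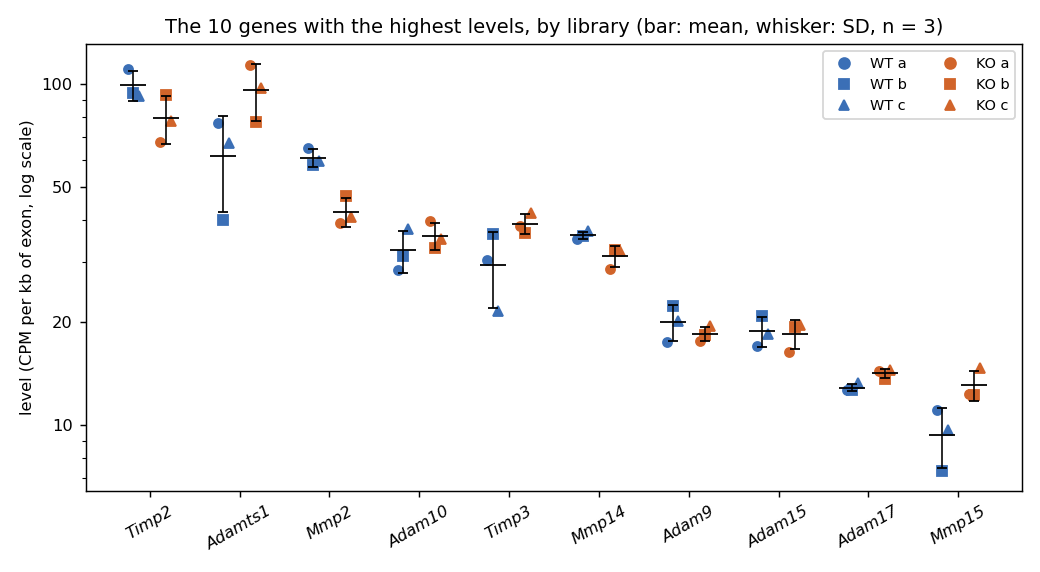
Levels of the 10 highest genes in each library (vertical axis, CPM per kb of exon, log scale), with WT libraries in blue and KO libraries in orange, the mean as a bar and the SD as a whisker (n = 3). The KO libraries lie below the WT libraries for *Mmp2* and *Mmp14* and above them for *Adamts1*, *Timp3*, *Adam17* and *Mmp15*, while those of *Timp2*, *Adam10*, *Adam9* and *Adam15* overlap.

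The sheddases of the ADAM family were abundant, and none of them was called. *Adam10* (chr9:70678997-70780229), which releases Notch and cadherin ectodomains, measured 140.3, 154 and 185 CPM in WT and 195, 162 and 172 CPM in KO. The genotypes overlapped, with a log2 fold change of 0.14 (SE 0.12, adjusted p = 0.681). *Adam17* (chr12:21323509-21373632), the TNF-converting enzyme that also releases EGF receptor ligands, measured 90.7, 90.9 and 94.7 CPM in WT and 103, 97.9 and 104 CPM in KO. Its libraries did not overlap, but the log2 fold change was 0.14 (SE 0.08) with an adjusted p of 0.577. *Adam9* measured 72.4, 92.1 and 83.4 CPM in WT and 72.9, 75.7 and 80.2 CPM in KO, and *Adam15* measured 105, 128 and 114 against 101, 119 and 121 CPM. Both are widely expressed disintegrin proteases, and both overlapped between the genotypes, with log2 fold changes of −0.12 (SE 0.10) and −0.03 (SE 0.11).

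The remaining ADAM genes were low or at the floor. *Adam8*, a sheddase best known from leukocytes, was at 4.96 to 8.79 CPM. *Adam19* had 23 to 40 counts, *Adam1a* 23 to 46, *Adam4* 4 to 11 and *Adam12* at most 9, and *Adam28*, *Adam33*, *Adam22*, *Adam23*, *Adam1b*, *Adam5* and *Adam21* had at most 5 in each library. None of these 12 genes separated the genotypes. *Adam11*, a neural ADAM without protease activity, had 15, 13 and 6 counts in WT and 21, 19 and 31 in KO, so that all KO libraries were higher (log2 fold change 1.08, SE 0.42, adjusted p = 0.340). *Adam30* (0, 0 and 0 against 1, 4 and 1 counts) and *Adam32* (5, 6 and 5 against 3, 1 and 0 counts), both known from reproductive tissue, also did not overlap, with fewer than 10 counts in each library. No ADAM gene was called in edgeR, limma-voom or DESeq2. DESeq2 gave no adjusted p for *Adam4*, *Adam12*, *Adam32* and the ADAM genes with at most 5 counts in each library. In edgeR 3 of 19 (15.8%, against 11.5% of all genes) had an unadjusted p below 0.05.

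*Adamts1* had the highest mean level per kb of the protease genes over the 6 libraries, and its 3 KO libraries were the higher ones. In WT its mean of 61.5 ± 19.2 CPM per kb (SD, n = 3) was not apart from the 60.9 ± 3.79 of *Mmp2*, and in WT b *Mmp2* was the higher of both. *Adamts1* (ENSMUSG00000022893, chr16:85793827-85803113), which cuts the proteoglycans versican and aggrecan, measured 408, 213 and 357 CPM in WT and 604, 412 and 516 CPM in KO. WT b was the lowest and WT a was close to KO b, so the gap was narrow beside the spread within each genotype (WT 326 ± 102, KO 511 ± 96.4 CPM, SD, n = 3). The log2 fold change was 0.65 (SE 0.21, adjusted p = 0.213), with adjusted p from 0.0505 to 0.737 over the alternatives. Its neighbour *Adamts5* (chr16:85858170-85901125), the main aggrecanase of mouse cartilage, measured 13.5, 15.7 and 18.1 CPM in WT and 19.8, 19.6 and 19.1 CPM in KO (log2 fold change 0.30, SE 0.13, adjusted p = 0.418). Both neighbours were higher in all KO libraries and neither was called.

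*Adamts20* (ENSMUSG00000022449, chr15:94270163-94465418), the protease mutated in belted mice with white spotting, had the largest fold change among genes with more than 10 counts in any library. It had 1, 4 and 0 counts in WT and 22, 9 and 20 in KO. The groups did not overlap, and the ratio of summed counts, 51 to 5, was 10.3 at equal depth (95% counting interval 4.15 to 33.1, which covers counting error only). The log2 fold change was 3.27 (SE 0.73, adjusted p = 0.0708), and the alternatives that gave an adjusted p ranged from 0.05002 to 0.431, with 0.379 without WT c and 0.431 without KO a. The melanocyte markers, relevant because belted mice lack melanocytes in the spots, summed to 6.33 to 13.4 CPM in WT and 10.3 to 11.7 CPM in KO libraries, and none of 5 was called.

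**Figure D5:**
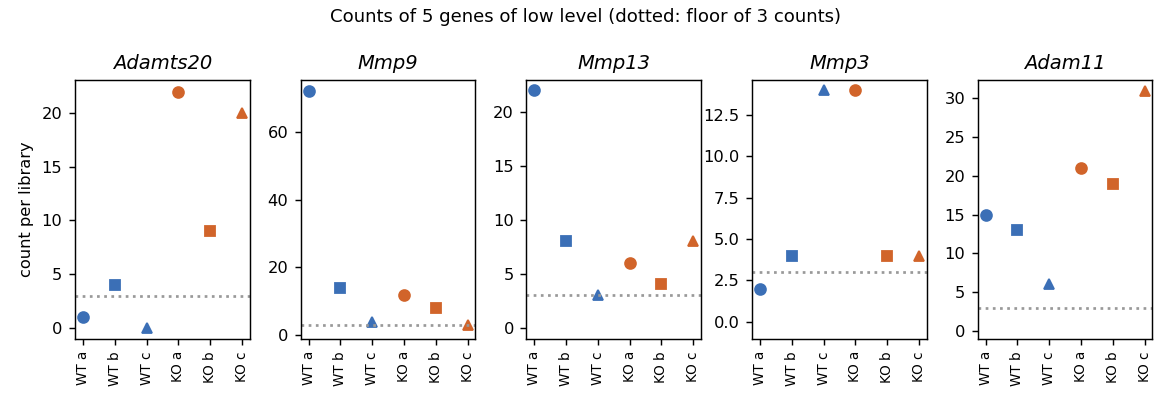
Counts per library (vertical axis, 1 scale for each gene) of *Adamts20*, *Mmp9*, *Mmp13*, *Mmp3* and *Adam11*, with the floor of 3 counts dotted, WT libraries in blue and KO libraries in orange. *Adamts20* is at 0 to 4 counts in WT and 9 to 22 in KO, whereas the 72 counts of *Mmp9* and the 22 of *Mmp13* are those of WT a.

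Among the other ADAMTS genes, *Adamts17* measured 14.7, 13.9 and 17.7 CPM in WT and 19.8, 18.9 and 22.6 CPM in KO. The KO libraries were all higher (log2 fold change 0.40, SE 0.14, adjusted p = 0.254). Of the procollagen N-proteinases, *Adamts2* measured 2.39, 2.29 and 2.56 CPM in WT and 1.66, 2.20 and 1.69 CPM in KO, lower in all KO libraries, and *Adamts3* was at 1.68 to 3.34 CPM in WT and 3.33 to 5.90 in KO. Their log2 fold changes were −0.38 (SE 0.24, adjusted p = 0.617) and 0.73 (SE 0.30, adjusted p = 0.370). *Adamts9*, a proteoglycanase that cuts versican, was at 36.1 to 48.7 CPM, *Adamts10* at 8.33 to 16.9 and *Adamts7* at 5.10 to 8.93, and the genotypes overlapped for each. *Adamts19*, *Adamts14*, *Adamts18*, *Adamts6* and *Adamts15* had 14 to 192 counts per library, *Adamts4*, *Adamts8*, *Adamts12* and *Adamts13* had at most 9, and all 9 overlapped. No ADAMTS gene was called in edgeR, limma-voom or DESeq2, but DESeq2 gave no adjusted p for *Adamts20*, *Adamts4*, *Adamts8*, *Adamts12* and *Adamts13*. An unadjusted p below 0.05 was found for 5 of 18 (27.8%, against 11.5% of all genes), each of these 5 higher in KO. By sign alone, 10 of the 18 had a log2 fold change above 0 and 8 below.

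The partners and targets of these proteases were read from lists of genes outside the families, drawn up with earlier results of these data known. The counts of calls in them are therefore descriptions and no independent support. Among 24 activators, convertases, sheddase partners and plasminogen genes, edgeR called 3 higher and none lower in KO, beside the 0.673% of all genes given above. The 3 were the kallikreins *Klk5*, *Klk7* and *Klk8*, serine proteases of the upper epidermis. *Klk7* measured 63.5, 72.0 and 61.0 CPM in WT and 239.5, 128 and 129 CPM in KO (log2 fold change 1.34, SE 0.21, adjusted p = 0.0187). *Klk5* had a log2 fold change of 1.25 (SE 0.13) and *Klk8* of 1.26 (SE 0.21). With limma-voom *Klk5* alone was called, and the adjusted p was 0.0929 for *Klk7* and 0.128 for *Klk8*. DESeq2 called 4 genes of this list, these 3 and *Rhbdf2*, a partner of ADAM17, which was higher in all KO libraries (log2 fold change 0.52, SE 0.13, adjusted p = 0.0286 in DESeq2 and 0.109 in edgeR). The convertase gene *Furin*, which activates many of the proforms, was at 215 to 252 CPM with a log2 fold change of −0.01 (SE 0.10).

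Of 19 inhibitors and modulators edgeR called 1, the plasminogen activator inhibitor gene *Serpinb2*, with 49.0, 43.6 and 60.4 CPM in WT and 92.9, 83.9 and 97.5 CPM in KO (log2 fold change 0.84, SE 0.12, adjusted p = 0.0117). limma-voom called none, with an adjusted p of 0.0534 for *Serpinb2*. DESeq2 called 3, *Serpinb2* and 2 that were lower in KO, *Reck* (adjusted p = 0.0364) and *Adamtsl3* (log2 fold change −0.74, adjusted p = 0.0485). In edgeR 7 of the 19 (36.8%, against 11.5% of all genes) had an unadjusted p below 0.05, and 5 of these 7 were lower. Of 27 membrane substrates of sheddases edgeR called 1, *Tnf*, the substrate that gave ADAM17 its older name. *Tnf* measured 0.964, 1.42 and 1.37 CPM in WT and 4.72, 2.72 and 3.05 CPM in KO (log2 fold change 1.48, SE 0.29, adjusted p = 0.0472). limma-voom called none of the 27, and DESeq2 called 3, *Tnf*, *Cd44* (log2 fold change 0.41, adjusted p = 0.00613) and *Dll1* (−0.65, adjusted p = 0.0211). The substrates with the highest levels per kb, *Sdc1*, *Sdc4* and *Cdh1*, had log2 fold changes of 0.20, −0.01 and 0.11 and were called by none of the 3 tools. Of 24 matrix substrates none was called in edgeR or limma-voom, and DESeq2 called 3, with *Col1a2* lower and *Dcn* and *Bgn* higher. In edgeR 12 of 24 (50%) had an unadjusted p below 0.05, 5 higher and 7 lower in KO. The share was 11.5% of all genes and 16.5% of those with a mean count of 10 or more. The genotypes did not overlap for 4 of the 24 (16.7%), near the 16.3% of all genes. The highest per kb, *Col17a1*, was at 4023 to 8009 CPM. The median log2 fold changes of the 4 lists were 0.10, −0.06, 0.11 and 0.01, beside 0.00 for all genes.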

How the data were processed

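The labels and the study's methods give 6 strand-specific libraries of polyadenylated RNA, 3 WT and 3 KO, from GFP-positive keratinocytes of DMBA/TPA-treated skin. The submitters' processing notes name bcl2fastq, TopHat2 2.1.0, Bowtie 1.1 and HTSeq, and per the methods reads were aligned to mouse build GRCm38 with Ensembl gene models and uniquely mapped reads were counted per gene and strand. The deposited values are these raw counts, without normalization or pooling. Genes whose reads match a close copy can therefore lose counts. Column names show a genotype without the sample numbers of the labels. Libraries are therefore named WT a to c and KO a to c by their order in the table, and 0 per-sample columns were left out. Library pairs differed by more than sampling noise (lowest chi-square divided by its degrees of freedom, 10.1).

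Genes with a count in at least 1 library (21681) were tested for KO against WT with edgeR 4.0.16 in R 4.3.3 (TMM factors, glmQLFit and glmQLFTest, Benjamini-Hochberg over all genes), the source of each adjusted p for which no other tool is named. limma-voom (limma 3.58.1) and DESeq2 1.42.0 were alternatives, as were library size only, upper-quartile factors, filterByExpr, at least 10 counts in every library, protein-coding genes only and leaving out each library. Exact permutation tests of 3 against 3 cannot give a p below 0.1. They give 0.1 for any gene whose genotypes do not overlap, *Mmp2* among them, and so add nothing to that description. CPM per kb used the summed exon length of the reference annotation (GRCm38), which held all 60 tested genes. The counting interval is an exact binomial one at 95%, which like the floor covers counting error only.

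Members, lists and alternatives were chosen with earlier results of these data known. Values per library are given for genes called, genes whose genotypes do not overlap at more than 10 counts on average, the 10 highest, the TIMP genes and *Adam10*, *Adam17*, *Mmp2*, *Mmp9*, *Mmp13* and *Mmp14*, and from each list for called genes and up to 3 abundant ones. Other genes were named after their values were seen. The code was tested on simulated counts.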

Additional observations from a re-analysis of the deposited data

How the results depend on the processing

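Of the 60 genes, edgeR called 1 (*Mmp2*) among 146 of all genes. No gene of the families was called with limma-voom (24 of all genes), filterByExpr (15), at least 10 counts in every library (12) or protein-coding genes only (25), whereas DESeq2 called 1 and 546 of all genes. The log2 fold change of *Mmp2* was −0.53 under each of these 4 settings without a call, with adjusted p of 0.105, 0.113, 0.121 and 0.0925, and was −0.60 to −0.47 when single libraries were left out. Leaving out 1 library gave 0 to 2 calls in the families and 5 to 521 over all genes: 5 without WT c, 10 without KO a, 30 without KO c, and 521 without WT a, where *Mmp15* joined *Mmp2*. With fewer genes or libraries the adjustment differed by construction, and beyond that the cause was not tested. Genes of the families without overlap numbered 13, and 13 to 21 with a library left out (21 without WT b, 20 without WT c and 20 without KO c). With fewer libraries groups separate more easily, and the share was then 21.7% to 35% of the families and 23.1% to 31.2% of all genes. The lists held 5 called genes, and 1 with limma-voom. The log2 fold change of *Mmp13* (−0.85) was −1.30 to 0.15 with a library left out and turned above 0 without WT a. Other scalings kept the calls of the families. The 12 genes at or under the floor cannot show a difference at this depth. No paired analysis was possible because the count columns carry no replicate number that ties them to the labels.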
